A study of Mus musculus with 10 samples.

Results

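Semaphorins are secreted or membrane-bound guidance proteins, plexins are their main receptors, and neuropilins are co-receptors that most secreted (class 3) semaphorins need to signal through plexins of the A type. The genes described here were chosen by symbol as the semaphorin classes 3 to 7, the plexins A to D and both neuropilins, each read from the brightest of the gene's probe sets. This gave 31 of the 22180 genes measured: 20 semaphorins, 9 plexins and 2 neuropilins, which take in all the genes of these families with a probe set of a single symbol. Plexins carry a domain that acts on Ras-family GTPases and, once bound by a semaphorin, reshape the cytoskeleton and loosen adhesion. Neuropilins also bind vascular endothelial growth factors (VEGFs), so the family stands between guidance and vessel growth, and in the developing lung class 3 semaphorins and neuropilins are known for their part in branching and in the growth of vessels.

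RNA from sorted mouse lung cells labelled as type 2 alveolar epithelial cells (AEC2s, the surfactant-making cells) was measured on 10 expression arrays at postnatal day 4, 5 for each of the 2 populations. The Axin2+ cells came from Axin2CreERT2-TdTom mice and were taken as positive for TdTomato and the epithelial protein EpCAM and negative for CD31 and CD45. The SP-C+ cells came from SftpcCreERT2-R26REYFP mice, in which Cre driven by the surfactant protein C gene switched on YFP, and were sorted on YFP after 24 h of lineage tracing. Both lines had a mixed background of C57BL/6, 129S6 and CD-1, and no treatment is named beyond the labelling. The Axin2+ gate names no AEC2 marker, and a description shared by all arrays also mentions adult cells, whereas titles and ages give day 4. Line, reporter and gate differ together between the populations and cannot be told apart from the cell labels, and no label says whether replicates are separate animals or pools, so p-values measure only the spread between these samples. The mean log2 value of 3 Y-linked genes was 3.87, 8.85, 3.94, 9.24 and 4.02 in Axin2+ replicates 1 to 5, against 7.11, 9.34, 9.08, 4.06 and 9.42 in SP-C+ replicates 1 to 5. Both groups thus held arrays with low and with high Y-linked signal, so the arrays of a group did not all share 1 source of RNA.

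Of the 31 genes, 9 were higher and 5 lower in Axin2+ than in SP-C+ arrays at an adjusted p under 0.05 in limma, against 8.61% and 8.95% of all genes in these directions. Together 14 genes (45.2%) passed, against 17.6% of all genes. The share over all genes is not matched for level. By mean value 24 of the 31 lay above the median gene. Among the genes that passed, only Plxnc1 and Sema6d lay below it, at percentiles 34.4 and 40.9 of all genes. Of the 11090 genes above the median gene, fitted and adjusted alone, 3782 passed. In all 14 the groups did not overlap, 9 with Axin2+ arrays above and 5 below, as for 7.38% and 7.66% of all genes (15.0% together). The secreted semaphorin genes Sema3e, Sema3a, Sema3b and Sema3f, the membrane semaphorin genes Sema5a and Sema6d, and the receptor genes Plxna1, Plxnb1 and Nrp2 rose. The membrane semaphorin genes Sema4a, Sema4b, Sema4g and Sema6a and the receptor gene Plxnc1 fell. Rises reached 18.3-fold (Sema3e) and 6 of them were at least 2-fold, as for 2.89% of all genes, whereas no fall exceeded 1.61-fold (0.338% of all genes fell at least 2-fold). The median difference over the 31 genes was -0.04 on the log2 scale, as it was over all genes (-0.04).

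**Figure D1:**
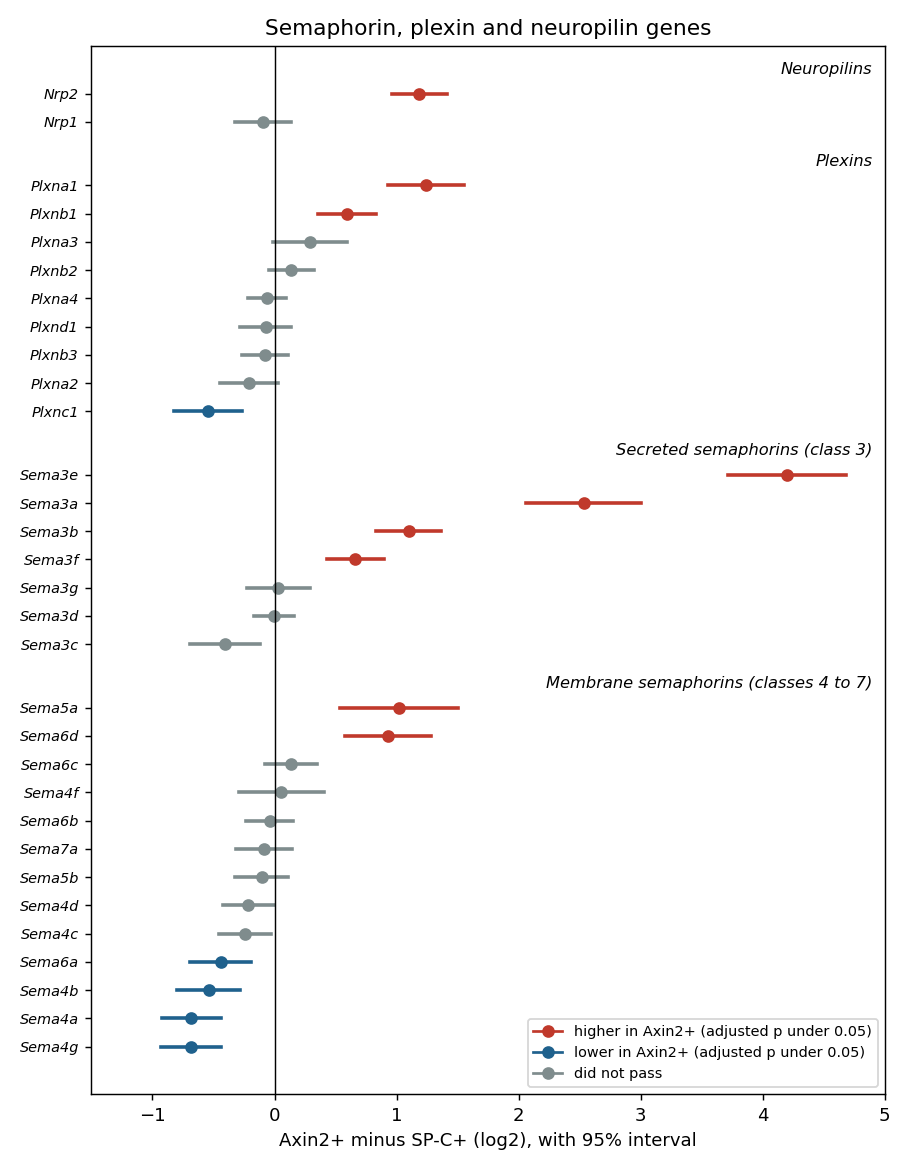
Log2 differences (Axin2+ minus SP-C+) of the 31 genes as points, with 95% intervals that are not adjusted for the number of genes (lines), grouped by family. Red points are the 9 genes that were higher and blue points the 5 that were lower at an adjusted p under 0.05 in limma; Sema3e lies at 4.20 and the lowest 2, Sema4g and Sema4a, at -0.68.

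Markers of other cells moved with the groups. Of 25 markers of type 1 alveolar cells (AEC1s, the flat gas-exchange cells; Sema3e is not among them) 25 were higher in Axin2+ arrays, and the log2 of their summed signal lay between 16.29 and 16.58 in Axin2+ and between 14.93 and 15.29 in SP-C+ arrays. Of 25 markers of multiciliated airway cells 22 were higher and 1 lower, with sums of 13.38 to 13.60 in Axin2+ and 11.28 to 11.56 in SP-C+ arrays. The lower gene was Ccno, at -0.75 (adjusted p = 7.71e-05 in limma). Of 14 club and secretory cell markers 7 were higher and 0 lower, with list means of 7.78 to 8.25 in Axin2+ and 7.07 to 7.32 in SP-C+ arrays, and Scgb1a1, the defining club cell gene, was higher by 2.73. Of 7 mesothelial markers 3 were higher and 0 lower, with list means of 6.32 to 6.67 in Axin2+ and 5.30 to 5.71 in SP-C+ arrays, and Msln was higher by 3.12. Of 24 AEC2 markers 6 were lower and 0 higher, with list means of 12.57 to 12.72 in Axin2+ and 12.79 to 12.94 in SP-C+ arrays. All 24 lay above the median gene, where 3782 of 11090 genes passed when fitted alone. Sftpc averaged 14.11 in Axin2+ and 14.02 in SP-C+ arrays, close to the highest value measured, 14.16. Its Axin2+ arrays all lay above its SP-C+ arrays, but it did not pass (adjusted p = 0.324 in limma). Of 18 endothelial markers 0 passed in limma, but SP-C+ replicate 1 stood apart. Its endothelial list mean was 7.45, against 6.22 to 6.72 in the other SP-C+ arrays and 6.27 to 6.49 in Axin2+ arrays, and Lyve1, a lymphatic and early capillary marker, measured 9.58 there, against 6.69 to 7.06 in Axin2+ arrays and 6.81 to 7.45 in the other SP-C+ arrays. Cell cycle genes (17 of 27 higher, 0 lower) had list means of 7.61 to 8.57 in Axin2+ arrays, of 6.92, 6.98 and 6.93 in SP-C+ replicates 1, 2 and 3, and of 7.55 and 7.79 in replicates 4 and 5. Array values are per amount of RNA, so a larger share of a cell type and more RNA of a gene per cell cannot be told apart in any result. The part of these other cells in the results for semaphorins and their receptors was not tested.

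**Figure D2:**
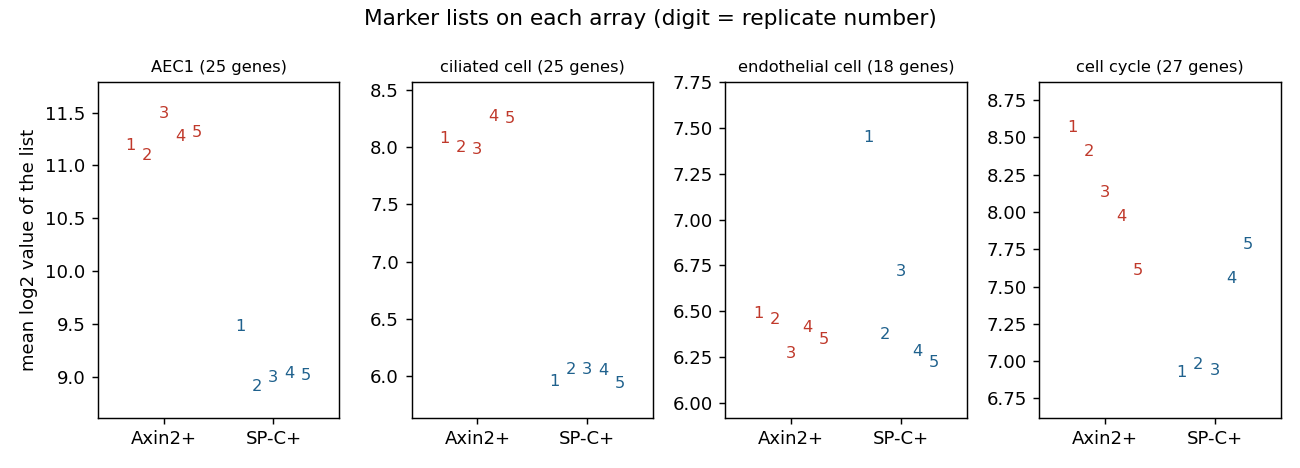
Mean log2 value of 4 marker lists on each array, Axin2+ on the left of each panel and SP-C+ on the right, with the digit giving the replicate number. AEC1 and ciliated cell lists separate the groups, the endothelial list is highest in SP-C+ replicate 1 at 7.45, and the cell cycle list differs between SP-C+ replicates 4 and 5 and the other 3.

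Sema3e encodes a secreted semaphorin that binds plexin D1 directly, without a neuropilin, and is known for restraining vessel growth. It measured 11.39, 11.26, 11.69, 11.33 and 11.47 in Axin2+ replicates 1 to 5, against 7.51, 6.59, 6.64, 7.63 and 7.80 in SP-C+ replicates 1 to 5. The Axin2+ arrays were tight (SD 0.17, n = 5) and the SP-C+ arrays spread more (SD 0.58), with replicates 2 and 3 lowest, but the groups were 3.46 apart at their closest. The difference was 4.20 ± 0.22 SE (adjusted p = 3.56e-08 in limma). It was 3.71 without SP-C+ replicates 1, 2 and 3 and 4.52 without replicates 4 and 5. Plxnd1, the gene of its receptor, averaged 7.37 ± 0.09 in Axin2+ arrays, against 7.45 ± 0.19 in SP-C+ arrays (SD, n = 5 each), and its difference of -0.07, with a 95% interval of -0.28 to 0.14, did not pass (adjusted p = 0.684 in limma).

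Sema3a encodes the founding repulsive semaphorin, which signals through neuropilin 1 and A-type plexins. Its values were 7.96, 7.50, 8.60, 8.42 and 8.69 in Axin2+ replicates 1 to 5, against 6.10, 5.35, 5.44, 5.74 and 5.86 in SP-C+ replicates 1 to 5. Here it was the Axin2+ arrays that spread (SD 0.50), with replicate 2 lowest, and in SP-C+ arrays replicate 1 was highest; the groups did not overlap. The difference was 2.54 ± 0.22 SE, or 5.80-fold (adjusted p = 2.83e-06 in limma).

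Sema3b and Sema3f, both known from tumour suppressor studies on lung cancer, rose less. Sema3b, whose product can bind both neuropilins, measured 10.16, 10.07, 10.41, 10.24 and 10.10 in Axin2+ replicates 1 to 5, against 9.19, 8.76, 8.87, 9.31 and 9.35 in SP-C+ replicates 1 to 5. Every Axin2+ array lay above every SP-C+ array, by at least 0.71, and the difference was 1.10 ± 0.12 SE (adjusted p = 3.54e-05 in limma). Sema3f, the neuropilin 2 ligand, ranged from 8.84 to 9.29 in Axin2+ and from 8.20 to 8.55 in SP-C+ arrays and rose by 0.66 ± 0.11 SE (adjusted p = 8.03e-04 in limma).

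The other 3 secreted semaphorin genes did not pass. Sema3c, whose product favours vessel and airway growth in other settings, ranged from 8.38 to 8.82 in Axin2+ and from 8.78 to 9.37 in SP-C+ arrays, and differed by -0.41 ± 0.13 SE (adjusted p = 0.0522 in limma). The call changed with the choice of SP-C+ arrays: the adjusted p was 0.0282 without SP-C+ replicate 4 and 0.0266 without SP-C+ replicate 5, which gave the 2 lowest SP-C+ values, and 0.00455 at a difference of -0.59 without both, whereas the difference was -0.12 without SP-C+ replicates 1, 2 and 3 (adjusted p = 0.618 in limma). The call for Sema3c also changed with the processing, and it passed in 7 of 24 other settings. On all 10 arrays it passed with median centring and with an intensity trend and robust variances. It also passed there when only genes above the 25th or the 50th percentile were kept. Sema3d differed by -0.0037 (interval -0.17 to 0.16). Sema3g, a gene of arterial endothelium, differed by 0.03 (interval -0.23 to 0.29), and SP-C+ replicate 1, with the most endothelial signal, gave its highest value, 6.23.

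Some genes of this class are neighbours. In RefSeq's gene order for mouse assembly GRCm38.p6, Sema3d is followed directly by Sema3a on chromosome 5, and Sema3e is the fourth protein-coding entry after Sema3a. Of these, Sema3a and Sema3e rose while Sema3d averaged 4.21 ± 0.10 in Axin2+ arrays, against 4.21 ± 0.08 in SP-C+ arrays (SD, n = 5 each). Speer3, which lies between Sema3a and Sema3e, also passed, at 0.26 (adjusted p = 0.0408 in limma), and the other 2 entries between them had no value used here. The gene on the far side of Sema3e, Pclo, differed by 0.02 and missed the threshold (adjusted p = 0.910 in limma). On chromosome 9, Sema3b and Sema3f are separated by 3 genes, Gnai2, Slc38a3 and Gnat1, which differed by 0.13, -0.11 and -0.16 and did not pass, while both semaphorin genes rose.

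**Figure D3:**
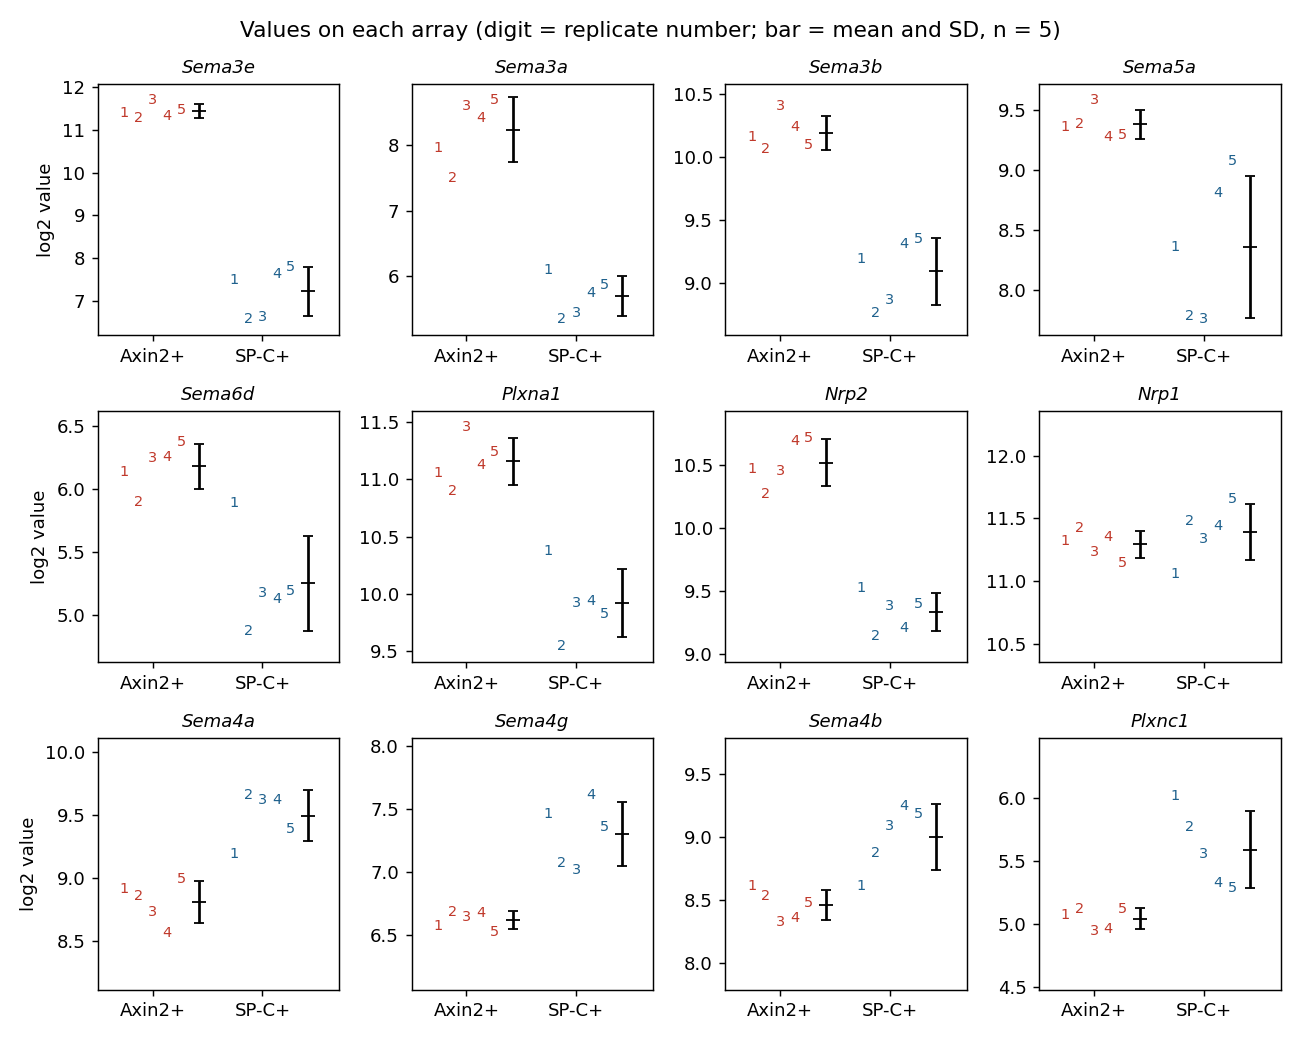
Log2 values of 12 of the genes on each array, Axin2+ on the left of each panel and SP-C+ on the right; digits are replicate numbers, and bars give the mean and SD (n = 5). Each panel has its own axis, which spans at least 2 log2 units. Nrp1 overlaps between the groups, and the other 11 genes do not, although Sema6d (gap 0.01) and Sema4b (gap 0.0056) come close.

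Class 4 semaphorins are single-pass membrane proteins that act mostly through B-type plexins. Of 6 genes, 3 fell and 0 rose, against 8.95% and 8.61% of all genes in these directions. Differences were negative in 5 of 6 (median -0.39), and in 13331 of all 22180 genes. All 6 lay above the median gene, and of the 11090 genes above it, fitted alone, 3782 passed. Sema4g measured 6.57, 6.68, 6.64, 6.67 and 6.52 in Axin2+ replicates 1 to 5, against 7.46, 7.07, 7.01, 7.61 and 7.35 in SP-C+ replicates 1 to 5. The Axin2+ arrays differed by little (SD 0.07) and all lay below the SP-C+ arrays, lower by -0.68 ± 0.11 SE (adjusted p = 8.98e-04 in limma).

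Sema4a, a semaphorin gene also known from immune cells and the retina, measured 8.91, 8.86, 8.73, 8.56 and 8.99 in Axin2+ replicates 1 to 5, against 9.19, 9.66, 9.62, 9.62 and 9.39 in SP-C+ replicates 1 to 5. SP-C+ replicate 1 was lowest of its group and still 0.20 above the highest Axin2+ array, and the difference was again -0.68 ± 0.11 SE (adjusted p = 8.78e-04 in limma). Sema4b ranged from 8.33 to 8.61 in Axin2+ and from 8.61 to 9.24 in SP-C+ arrays and was lower by -0.54 ± 0.12 SE (adjusted p = 0.00643 in limma). Only 0.0056 separated its groups, because SP-C+ replicate 1 measured close to Axin2+ replicate 1.

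Sema4c, the plexin B2 ligand gene, and Sema4d, the plexin B1 ligand gene, missed the threshold at differences of -0.24 and -0.22 (adjusted p = 0.119 and 0.154 in limma). Sema4c passed without SP-C+ replicate 2 (adjusted p = 0.0331 in limma), its lowest SP-C+ array, and Sema4d without SP-C+ replicates 1, 2 and 3 (-0.40, adjusted p = 0.0372 in limma), although its difference was -0.096 without replicates 4 and 5 (adjusted p = 0.522 in limma). Sema4f differed by 0.05 (interval -0.29 to 0.40), with SP-C+ replicate 1 lowest at 8.31 and the other SP-C+ arrays at 8.92 to 9.21.

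Among the remaining membrane semaphorins, Sema5a, which carries thrombospondin repeats and can attract or repel, rose and was the least even in SP-C+ arrays. It measured 9.36, 9.38, 9.58, 9.28 and 9.29 in Axin2+ replicates 1 to 5, against 8.36, 7.79, 7.76, 8.81 and 9.07 in SP-C+ replicates 1 to 5. Replicates 4 and 5, the SP-C+ arrays with the higher cell cycle values, were closest to the Axin2+ arrays. The difference was 1.02 ± 0.22 SE (adjusted p = 0.00674 in limma), 0.44 without SP-C+ replicates 1, 2 and 3 (adjusted p = 0.0363 in limma) and 1.41 without replicates 4 and 5 (adjusted p = 4.69e-05 in limma). Its relative Sema5b differed by -0.10 and did not pass.

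Class 6 semaphorins are transmembrane ligands of A-type plexins. Sema6d, whose product binds plexin A1, measured 6.14, 5.90, 6.25, 6.25 and 6.38 in Axin2+ replicates 1 to 5, against 5.89, 4.87, 5.18, 5.13 and 5.19 in SP-C+ replicates 1 to 5. SP-C+ replicate 1 nearly reached the lowest Axin2+ array, while the other 4 SP-C+ arrays lay well below; the difference was 0.93 ± 0.16 SE (adjusted p = 0.00136 in limma) and 1.09 without SP-C+ replicate 1. Sema6a, whose product binds plexins A2 and A4, ranged from 6.42 to 7.03 in Axin2+ and from 7.18 to 7.40 in SP-C+ arrays and was lower by -0.44 ± 0.12 SE (adjusted p = 0.0185 in limma). The call for Sema6a was lost without SP-C+ replicates 1, 2 and 3, at a like difference of -0.43 (adjusted p = 0.133 in limma).

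Sema6b and Sema6c differed by -0.04 and 0.14, and Sema7a, whose product is anchored by a lipid and binds plexin C1 and integrins, by -0.09 (interval -0.32 to 0.15). None of these 3 passed.

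Of the 11 receptor genes 3 were higher and 1 lower (36.4% together, against 17.6% of all genes). Of these 11, 9 lay above the median gene, where 3782 of 11090 genes passed when fitted alone. The 36.4% is therefore not read as an excess. Nrp2, the co-receptor for Sema3f and VEGF-C, measured 10.47, 10.27, 10.45, 10.69 and 10.72 in Axin2+ replicates 1 to 5, against 9.52, 9.15, 9.38, 9.21 and 9.40 in SP-C+ replicates 1 to 5. Both groups were tight (SD 0.19 and 0.15) and lay at least 0.75 apart, at a difference of 1.19 ± 0.11 SE, or 2.28-fold (adjusted p = 3.90e-06 in limma).

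Nrp1, the co-receptor for Sema3a and VEGF-A, did not pass. It measured 11.32, 11.43, 11.23, 11.35 and 11.15 in Axin2+ replicates 1 to 5, against 11.06, 11.48, 11.33, 11.44 and 11.65 in SP-C+ replicates 1 to 5. The groups overlapped fully, and the difference of -0.10, with an interval of -0.33 to 0.13, did not pass (adjusted p = 0.612 in limma). SP-C+ replicate 1, where endothelial markers were highest, gave the lowest Nrp1 value of all arrays.

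Of the A-type plexins, the partners of neuropilins, 1 of 4 rose. Plxna1 measured 11.05, 10.90, 11.46, 11.13 and 11.24 in Axin2+ replicates 1 to 5, against 10.37, 9.54, 9.92, 9.93 and 9.82 in SP-C+ replicates 1 to 5. The groups were 0.53 apart and the difference was 1.24 ± 0.14 SE (adjusted p = 4.81e-05 in limma). A second probe set of Plxna1 averaged 8.15 ± 0.21 in Axin2+ and 7.60 ± 0.24 in SP-C+ arrays (SD, n = 5 each), a difference of 0.55 in the same direction.

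The other A-type plexin genes did not pass. Plxna2 differed by -0.21 and by -0.10 without SP-C+ replicate 1, whose value of 10.72 stood above 10.12 to 10.22 in the other SP-C+ arrays. Plxna4 had the smallest SD in Axin2+ arrays of the 31 genes, at 10.19 ± 0.03 in Axin2+ and 10.26 ± 0.10 in SP-C+ arrays (SD, n = 5 each), with an interval of -0.22 to 0.09 for the difference. Plxna3 lay between 7.69 and 7.84 in Axin2+ arrays, against 7.12, 7.09, 7.64, 7.81 and 7.74 in SP-C+ replicates 1 to 5, and the difference of 0.29 became 0.49 and passed without SP-C+ replicates 4 and 5 (adjusted p = 0.0190 in limma).

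Among B-type plexins Plxnb1, which pairs with the receptor kinases Met and Erbb2, ranged from 10.20 to 10.40 in Axin2+ and from 9.31 to 9.92 in SP-C+ arrays. The difference was 0.59 ± 0.11 SE (adjusted p = 0.00228 in limma). It was 0.37 without SP-C+ replicates 1, 2 and 3 (adjusted p = 0.0232 in limma). A second probe set of the gene gave no such difference: it averaged 6.56 ± 0.23 in Axin2+ and 6.59 ± 0.19 in SP-C+ arrays (SD, n = 5 each), and with the mean of both the call was lost (0.28, adjusted p = 0.0871 in limma). Plxnb2, known in epithelia as the receptor for Sema4c and Sema4d, differed by 0.14 (interval -0.04 to 0.32) and Plxnb3 by -0.08.

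Plxnc1, the receptor gene for Sema7a, was the receptor gene that fell. It ranged from 4.94 to 5.12 in Axin2+ arrays, against 6.01, 5.77, 5.56, 5.32 and 5.28 in SP-C+ replicates 1 to 5. All Axin2+ arrays lay below the SP-C+ arrays, and the difference was -0.55 ± 0.13 SE (adjusted p = 0.0102 in limma). It was -0.44 without SP-C+ replicate 1 (adjusted p = 0.0137 in limma), and -0.26 without replicates 1, 2 and 3, where the call was lost (adjusted p = 0.0988 in limma). Plexin C1 is also a leukocyte gene, and the leukocyte list had means of 5.51 to 5.70 in Axin2+ and 5.60 to 5.96 in SP-C+ arrays, with SP-C+ replicate 1 highest; 1 of its 23 genes was higher and 2 were lower.

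**Figure D4:**
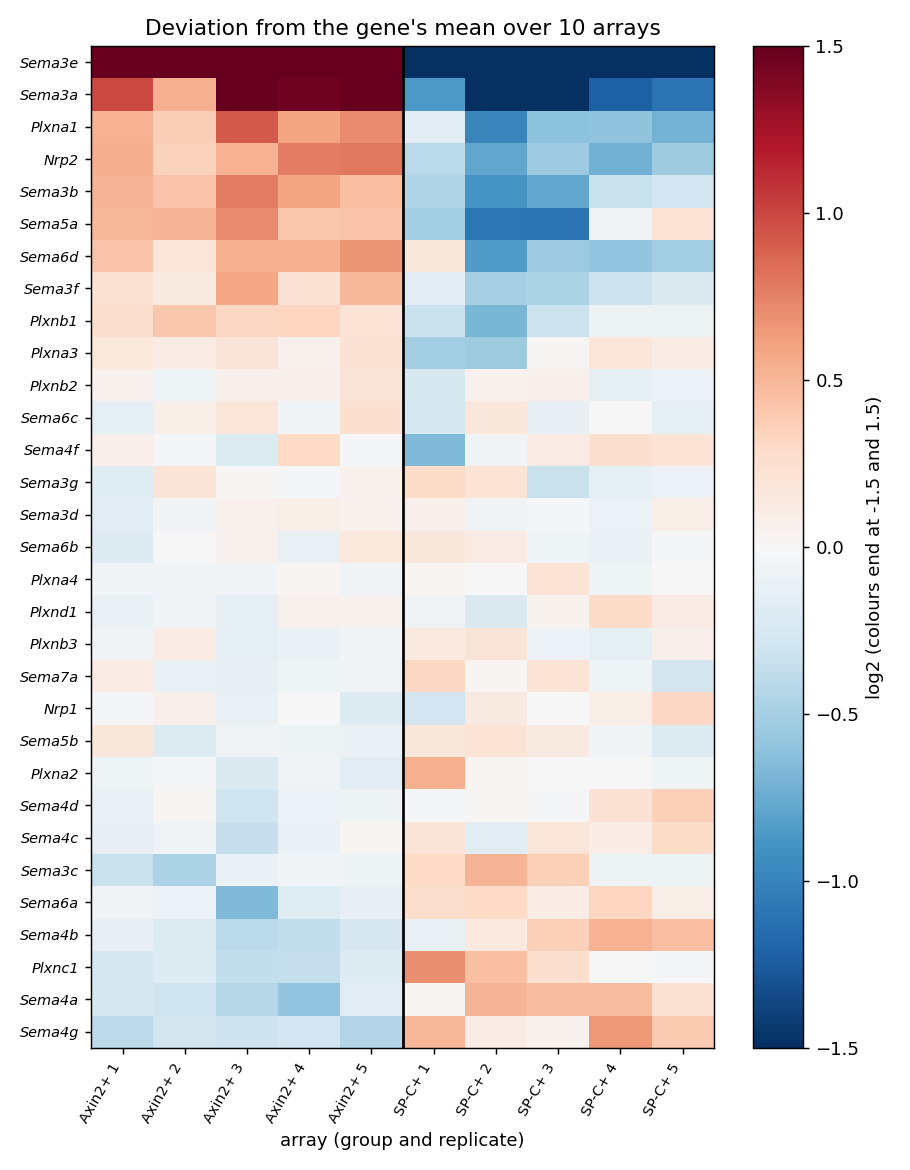
Deviation of each of the 31 genes from its mean over the 10 arrays (log2, red above and blue below, with colours ending at the limits of the bar), sorted by difference; Axin2+ arrays are on the left and SP-C+ arrays on the right. The 9 upper and 5 lower genes separate the groups, and SP-C+ replicates 1, 4 and 5 deviate from replicates 2 and 3 in several genes.

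The extreme arrays of the 9 genes that rose were counted. Within Axin2+, replicate 3 gave the highest value for 5 of the 9 and replicate 2 the lowest for 7. Within SP-C+, replicate 2 gave the lowest value for 8 of the 9 and replicate 1 the highest for 5. Those arrays were also the extremes of the AEC1 list: its mean was highest in Axin2+ replicate 3 (11.49) and lowest in replicate 2 (11.10), and in SP-C+ it was highest in replicate 1 (9.47) and lowest in replicate 2 (8.91). The ciliated list did not have these extremes: its mean was highest in Axin2+ replicate 4 (8.27) and lowest in replicate 3 (7.98), and in SP-C+ it was highest in replicate 2 (6.06) and lowest in replicate 5 (5.94). Other lists shared some extremes. The protease and plexin-proximal lists were also highest in Axin2+ replicate 3 (9.62 and 9.01) and lowest in replicate 2 (9.41 and 8.93). The endothelial, mesenchymal, mesothelial, leukocyte, VEGF, plexin-proximal and collapsin response mediator lists were also highest in SP-C+ replicate 1. The AEC2 list was lowest in Axin2+ replicate 3 (12.57) and SP-C+ replicate 1 (12.79), and highest in SP-C+ replicate 2 (12.94). Within Axin2+ it was highest in replicate 4 (12.72). SP-C+ replicate 5, highest for 3 of the 9 genes, had the highest cell cycle mean of its group (7.79). These are descriptions of 5 arrays a group, the lists were read on the same arrays as the 9 genes, and no cause was tested.

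Known pairs of ligand and receptor genes gave several combinations. Sema3f rose with its co-receptor gene Nrp2, and Sema6d with its receptor gene Plxna1. Sema3e rose without a passing difference in Plxnd1. Sema3a rose without one in Nrp1, although the A-type plexin gene Plxna1 rose. Sema3b rose with Nrp2 but without a passing difference in Nrp1. Sema6a fell while its receptor genes Plxna2 and Plxna4 did not pass. Plxnb1 rose while its ligand gene Sema4d had a difference of -0.22 that did not pass, and Plxnc1 fell while Sema7a had one of -0.09 that did not pass. Whether these differences differ from each other was not tested.

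The sequences before the starts of 4 of these genes are shown because they stand for the largest rises, the co-receptor that rose and a gene that fell. They are the 250 bases before each gene's start in RefSeq (GRCm38.p6), 5′ to 3′ on the gene's strand, which is the plus strand for all 4. Capitals mark the motifs searched on both strands: CTTTGAT (TCF/LEF), GGAATG (TEAD), TGANTCA (AP-1) and GGGCGG (the GC box); neighbouring GC boxes can share a base, as in Nrp2.
Sema3e, chr5:14025026-14025275: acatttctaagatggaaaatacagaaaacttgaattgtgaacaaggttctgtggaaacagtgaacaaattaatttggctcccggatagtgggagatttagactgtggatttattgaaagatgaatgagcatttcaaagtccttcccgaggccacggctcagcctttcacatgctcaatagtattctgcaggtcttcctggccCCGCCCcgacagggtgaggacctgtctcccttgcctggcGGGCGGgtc
Sema3a, chr5:13396534-13396783: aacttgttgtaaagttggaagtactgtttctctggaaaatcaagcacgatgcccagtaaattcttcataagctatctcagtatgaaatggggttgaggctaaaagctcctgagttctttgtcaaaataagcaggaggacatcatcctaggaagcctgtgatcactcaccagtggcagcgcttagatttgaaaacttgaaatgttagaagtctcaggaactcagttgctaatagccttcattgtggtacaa
Nrp2, chr1:62703067-62703316: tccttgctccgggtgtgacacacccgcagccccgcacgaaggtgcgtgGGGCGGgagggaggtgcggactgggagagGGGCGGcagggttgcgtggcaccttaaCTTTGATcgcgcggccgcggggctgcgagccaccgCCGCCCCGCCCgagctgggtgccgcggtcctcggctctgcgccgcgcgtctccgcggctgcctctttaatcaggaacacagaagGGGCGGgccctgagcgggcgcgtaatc
Sema4g, chr19:44989094-44989343: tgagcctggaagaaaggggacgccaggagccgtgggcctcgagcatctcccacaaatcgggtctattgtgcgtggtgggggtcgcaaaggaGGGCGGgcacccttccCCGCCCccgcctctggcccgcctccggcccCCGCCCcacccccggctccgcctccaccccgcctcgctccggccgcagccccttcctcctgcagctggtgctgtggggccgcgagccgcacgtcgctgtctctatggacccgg

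Sema3a and Sema3e were 40.8% and 48.0% G and C, Nrp2 and Sema4g 72.4% and 73.2%, and the median over the 26 of the 31 genes with an entry was 65.0%, against 52.4% over 32851 promoters. Nrp2 held a TCF/LEF motif 146 bases before the start and 5 GC boxes, Sema4g held 3 GC boxes, Sema3e 2, and Sema3a none of the motifs searched. Over the 26 genes, the GC box was found in 21, of which 5 rose and 4 fell. Counted by promoter entry it was in 27 of their 37 (73.0%), against 32.7% of all promoters. TCF/LEF was found in 1 gene, Nrp2 (2.70% of the 37 entries, against 3.21% of all promoters). TEAD was found in 3 genes, Plxnb1, Plxnd1 and Sema4a (8.11% of entries, against 12.6%). AP-1 was found in 3 genes, Sema4c, Sema4d and Sema6b (8.11% of entries, against 6.75%). Some genes have several entries, and a match of letters is a description only. The genes without an entry are Plxna1, Plxna4, Sema3b, Sema3f and Sema6a.

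Partner genes of the pathway were taken from 5 lists. Of their 77 genes 15 were higher and 10 lower, together 32.5%, against 17.6% of all genes, at a median of -0.01. Here too the level differs from that of all genes. Of the 77, 58 lay above the median gene, and 3782 of the 11090 genes above it passed when fitted alone. The 32.5% is therefore not read as an excess. Among co-receptors and other receptors 2 of 16 passed (12.5%) and both were lower: Trem2, a partner of plexin A1 in myeloid cells, at 6.51 ± 0.16 in Axin2+ and 7.35 ± 0.42 in SP-C+ arrays (SD, n = 5 each), and Itga1, an integrin chain of the Sema7a receptor, at -0.66 ± 0.11 SE (adjusted p = 0.00137 in limma). The difference for Trem2 was -0.84 ± 0.17 SE (adjusted p = 0.00411 in limma).

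VEGF genes, whose products share the neuropilins, split. Vegfa, the main epithelial signal to lung capillaries, measured 12.61, 12.47, 12.78, 12.71 and 12.75 in Axin2+ replicates 1 to 5, against 11.74, 11.71, 11.64, 11.46 and 11.39 in SP-C+ replicates 1 to 5. The groups did not overlap and the difference was 1.08 ± 0.09 SE (adjusted p = 3.25e-06 in limma); Vegfa is also on the AEC1 list used here. Vegfb was lower by -0.45 ± 0.08 SE (adjusted p = 0.00139 in limma). Vegfd was higher by 0.55 ± 0.17 SE (adjusted p = 0.0395 in limma), a call that ended in 16 of 23 other settings, among them 8 of 10 fits without 1 array, and SP-C+ replicate 1, at 6.08, lay among the Axin2+ arrays. Kdr, the VEGF receptor gene of endothelium, averaged 6.14 ± 0.12 in Axin2+ and 6.07 ± 0.38 in SP-C+ arrays (SD, n = 5 each) and was highest, at 6.73, in SP-C+ replicate 1.

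Genes that act just below plexins moved both ways, with 7 of 33 higher and 5 lower (36.4% together, against 17.6% of all genes). Of these 33, 29 lay above the median gene, where 3782 of 11090 genes passed when fitted alone. The 36.4% is therefore not read as an excess. Mical1, an actin-oxidising enzyme that plexins A recruit, ranged from 7.73 to 8.35 in Axin2+ and from 6.44 to 7.34 in SP-C+ arrays. All Axin2+ arrays lay above the SP-C+ arrays, and the difference was 1.20 ± 0.17 SE (adjusted p = 2.27e-04 in limma). Its relatives Mical2 and Mical3, named after their values were seen, rose by 0.46 and 0.33 (adjusted p = 0.00193 and 0.0200 in limma). The call for Mical3 ended in 5 of 23 settings, among them the fit without Axin2+ replicate 1 (adjusted p = 0.0516 in limma) and that without SP-C+ replicates 1, 2 and 3 (adjusted p = 0.138 in limma). Micall1, a related gene of membrane recycling, was lower by -0.51 ± 0.10 SE (adjusted p = 0.00343 in limma).

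Of 13 genes of collapsin response mediators and the cytoskeleton 2 were higher and 1 lower, together 23.1%, near the 17.6% of all genes. Dpysl2, the mediator that carries Sema3a signals to microtubules, measured 12.45, 12.41, 12.68, 12.51 and 12.51 in Axin2+ replicates 1 to 5, against 10.98, 10.68, 10.81, 10.99 and 11.22 in SP-C+ replicates 1 to 5. The arrays of the groups lay far apart relative to their spread, at 1.57 ± 0.10 SE, or 2.98-fold (adjusted p = 2.01e-07 in limma). Limk1, the kinase that inactivates cofilin, was lower by -0.94 ± 0.16 SE (adjusted p = 0.00127 in limma).

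Proteases that cut semaphorins were higher in 4 of 8 and lower in 1 (62.5% together, against 17.6% of all genes). All 8 lay above the median gene, where 3782 of 11090 genes passed when fitted alone, so the 17.6% is not matched for level. Mmp14, a membrane metalloproteinase, rose by 1.02 ± 0.13 SE (adjusted p = 7.79e-05 in limma). Furin, the convertase that cleaves class 3 semaphorins, ranged from 9.89 to 10.11 in Axin2+ and from 10.32 to 10.63 in SP-C+ arrays and was lower by -0.45 ± 0.08 SE (adjusted p = 0.00158 in limma).

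**Figure D5:**
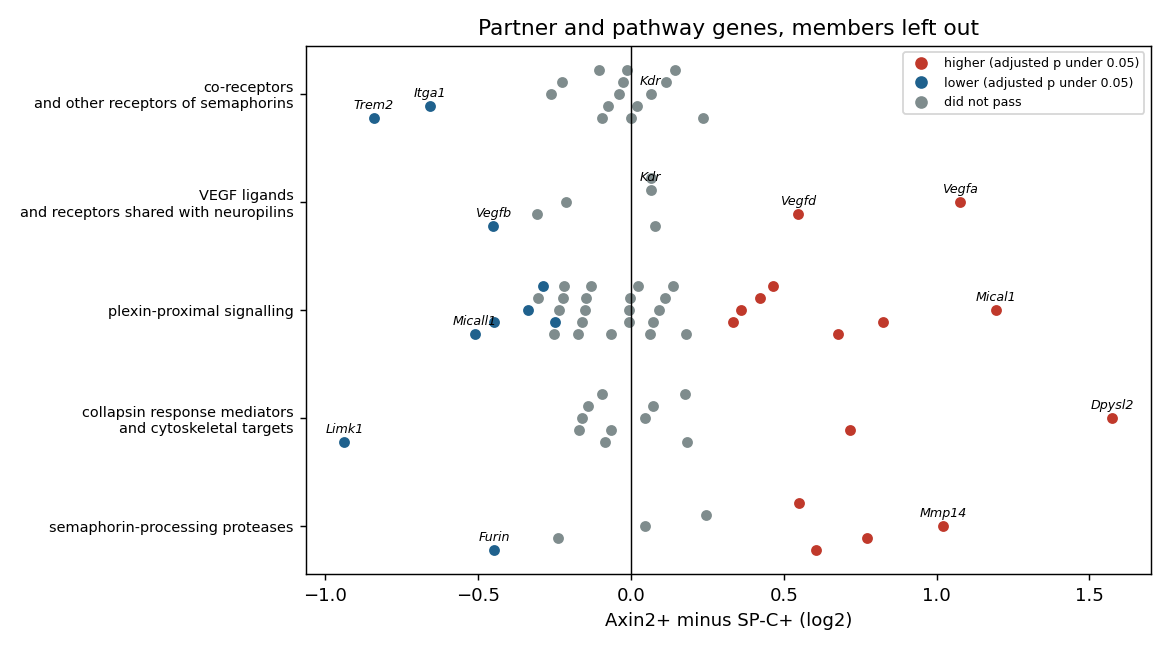
Log2 differences (Axin2+ minus SP-C+) of the 77 partner genes in 5 lists (a gene on several lists is drawn in each). Red points were higher and blue points lower at an adjusted p under 0.05 in limma; Dpysl2 lies furthest right at 1.57 and Limk1 furthest left at -0.94.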

How the data were processed

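The authors deposited log2 values for 41345 probe sets on 10 arrays, already normalized. Oligo, RMA and limma appear in the submitters' processing notes with no version or role. The values ran from 1.69 to 14.16, which is why base 2 was assumed. Array medians were 5.89 to 5.97. Each array took 100 ng of total RNA, per the labels' protocols. The number of arrays limits the precision.

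The platform's annotation, which may be old, gave 1 symbol to 23521 probe sets, several to 1814 and none to 16010. The brightest probe set of each symbol was used (22180 genes). Levels are compared between genes only in placing them above or below the median gene. Axin2+ minus SP-C+ was fitted over all genes with limma 3.58.1 in R 4.3.3 (lmFit, eBayes, no covariates), two-sided, with Benjamini-Hochberg adjustment and a threshold of 0.05. Errors are moderated SE, or SD where stated. Simulated data for this comparison (22180 genes, 200 changed) gave 60% recovery at a change of 0.5, 88% at 1 and 100% at 2 and at 3. Far more genes passed in the data (3894), and the simulation gave both groups the same spread. Recovery in the data can therefore differ from these figures.

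The genes, lists and alternative settings were chosen with earlier results of these data known. Values on every array are given for the 8 largest called differences (Sema4a, equal to Sema4g at 2 decimals, is added) and both neuropilins, and of each partner list the largest called rise and fall are named, with all called VEGF genes; other partner genes were chosen after their values were seen. Of 289 list entries 275 matched a gene, 2 through a synonym. Promoters are RefSeq's. Alternatives were the replicate number as a block, centring, quantile normalization, averaging a gene's probe sets, keeping genes above the 25th or the 50th percentile, adjustment over all probe sets, a trend with robust variances, array weights, stricter thresholds, leaving out arrays, and a Y-linked covariate.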

Additional observations from a re-analysis of the deposited data

Results flagged for a closer look

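In 3 of the 62 sets of 5 arrays formed by the 31 genes and both groups, 1 array lay far from the other 4, with a gap over 0.71 of the range; chance alone gives such a gap in about 1 of 20 sets. Plxna2 measured 10.72 in SP-C+ replicate 1, and the difference was -0.10 without that array, against -0.21 with it. Plxna4 measured 10.25 in Axin2+ replicate 4, against 10.17 to 10.18 in the others of its group, a gap that is small in size. Sema6a measured 6.42 in Axin2+ replicate 3, and without that array the difference was -0.33 and still passed (adjusted p = 0.0205 in limma).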

How the results depend on the processing

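Of the 14 called genes of the family, 10 kept their call in every setting run, and 0 changed sign; the exceptions Plxnb1, Plxnc1, Sema4b and Sema6a are given with their values in the text or below. Genes lower in Axin2+ arrays numbered 3 at an adjusted p under 0.01 and 2 (Sema4a and Sema4g) when a 1.5-fold difference was also asked for, which also ended the calls of Sema4b, Plxnc1 and Sema6a; partner genes then numbered 9 higher and 3 lower. Over all genes 3894 passed, against 2249 at 0.01 and 1600 with the 1.5-fold limit. Without 1 array the family had 9 higher and 5 to 6 lower genes, and the partners 11 to 14 higher and 7 to 10 lower. With the replicate number as a block the family had 9 higher and 5 lower genes and the partners 11 and 7. Same-numbered arrays did not deviate together (correlations of -0.23 to 0.01, and none was best with its own number), so the numbers were not taken as pairs. Of the 17 genes of the family that did not pass, 9 changed sign in at least 1 setting, as did Kdr, and the cause was not tested. Without SP-C+ replicates 4 and 5 they were 0.0066 for Nrp1, 0.039 for Plxnd1, -0.032 for Sema3g and -0.061 for Kdr. Without SP-C+ replicates 1, 2 and 3 they were -0.0015 for Plxna3, -0.20 for Sema4f, 0.075 for Sema5b, 0.045 for Sema6b and 0.12 for Sema7a. Sema3d was 0.0044 with quantile normalization, 0.0077 with array weights and 0.016 with the Y-linked covariate, and Sema3g -0.0042 with centring and -0.0075 with quantile normalization. Without 1 array the ranges were -0.026 to 0.038 for Sema3d, -0.050 to 0.10 for Sema3g, -0.11 to 0.12 for Sema4f, -0.084 to 0.0050 for Sema6b and -0.015 to 0.23 for Kdr.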
